A study of Mus musculus with 9 samples.

Results

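The 9 genes described here are Hox genes of the anterior paralog groups 1 to 4, namely Hoxb1, Hoxa2, Hoxb2, Hoxa3, Hoxb3, Hoxd3, Hoxa4, Hoxb4 and Hoxd4. They were read by Ensembl identifier from a table of 43548 gene identifiers. The list was selected on the FPKM of these genes in these same libraries, so their own differences are given as a description, and the number of them that a fit across all genes called is printed without support being drawn from it. They are 9 of the 12 mouse Hox genes of these groups, and Hoxd1 and Hoxc4 are given beside them. Expression was measured by RNAseq at E14.5 in 9 libraries, with 3 for each of the control cranial base, the control cranial vault and the MCAGF8 cranial vault. All embryos came from a cross of Msx2-Cre and CAGF8 mice, and their strain is labelled mixed. MCAGF8 embryos carried the genotype Msx2Cre; CAGFgf8, in which Cre turns on an Fgf8b cDNA in the surface ectoderm of the head, not in the mesenchyme that was collected. Controls are labelled wildtype, and the methods of the study describe controls as embryos without Cre. By those methods, Cre mice were crossed to mice homozygous for the Fgf8b allele. Controls thus also inherit that allele, in its form not activated by Cre. In every embryo the skin was removed before the vault tissue was taken, and the base was dissected from the control embryos only, after the vault and the brain. RNA from 3 tissue samples was combined for each library, so every SD here is a spread between pools, and p-values measure only that spread. The bases came from control embryos whose vaults were also taken, and which embryos went into which pool is not stated, while the fit treated the libraries as independent.

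Hox genes encode homeodomain transcription factors whose order along a cluster matches the order of their anterior expression limits along the body axis. In the head, the anterior groups are expressed in the hindbrain and in the neural crest of the second and more posterior pharyngeal arches, while the crest of the face and frontal bone lacks Hox expression, and mesoderm of the occipital and neck region expresses groups that mark its axial level. HOX proteins bind DNA together with TALE homeodomain cofactors of the PBX and MEIS families, and the anterior genes are switched on by retinoic acid and by the segmentation factor KROX20 (Egr2).

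In GENCODE M21 on GRCm38 the listed genes lie in 3 of the 4 Hox clusters. Hoxa2 (chr6:52162417-52164831), Hoxa3 (chr6:52169062-52213336) and Hoxa4 (chr6:52189671-52191753) are on the minus strand of chromosome 6. Hoxb4 (chr11:96318267-96321638), Hoxb3 (chr11:96323326-96347930), Hoxb2 (chr11:96350525-96354012) and Hoxb1 (chr11:96365752-96368256) follow each other on the plus strand of chromosome 11. Hoxd4 (chr2:74711929-74729160) and Hoxd3 (chr2:74711927-74748442) are on the plus strand of chromosome 2. These are whole gene spans, introns included.

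Words of the kind bound by such complexes were looked for directly before the listed genes. Hoxb1, which specifies the fourth segment of the hindbrain, and Hoxa2, the selector gene of the second pharyngeal arch, are shown because each had a match to a paired PBX-HOX word, TGATNNAT, in the 250 bases before its RefSeq start in GRCm38.p6. The Hoxb1 window is chr11:96365508-96365757, plus strand, and the Hoxa2 window is chr6:52164832-52165081, minus strand, and both are written 5′ to 3′ toward the start. Capitals mark the PBX-HOX word, read on either strand, and in Hoxa2 also the MEIS-PKNOX word TGACAG.
Hoxb1: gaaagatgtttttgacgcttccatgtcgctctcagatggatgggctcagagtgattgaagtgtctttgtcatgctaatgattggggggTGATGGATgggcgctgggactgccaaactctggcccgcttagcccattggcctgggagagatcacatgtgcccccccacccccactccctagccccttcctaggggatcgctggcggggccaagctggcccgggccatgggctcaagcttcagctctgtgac
Hoxa2: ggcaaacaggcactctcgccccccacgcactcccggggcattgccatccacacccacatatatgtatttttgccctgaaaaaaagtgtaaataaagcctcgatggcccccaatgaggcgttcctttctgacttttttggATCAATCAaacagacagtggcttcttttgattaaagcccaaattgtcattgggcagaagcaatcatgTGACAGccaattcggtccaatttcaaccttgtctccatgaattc
In Hoxb1 the word TGATGGAT begins 162 bases before the start. In Hoxa2 the word ATCAATCA, a match on the reverse strand, begins 111 bases before the start and TGACAG begins 44 bases before it. Windows were found for 6 of the 9 genes. The PBX-HOX word was found in 2 of the 6, against 7.68% of 32851 mouse promoter windows of that length, and the MEIS-PKNOX word in 2 of the 6, against 15.9%. The second gene with the MEIS-PKNOX word was Hoxa3. A match is a run of letters and no evidence of binding. The 2 genes with a PBX-HOX word lay at opposite ends of the expression range, with Hoxa2 the highest and Hoxb1 the lowest of the 9 by mean FPKM.

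The tissue labels were checked with lists of markers. The summed FPKM of 16 cartilage genes was 1320, 11746 and 1831 in control base replicates 1, 2 and 3, 2370 to 3417 in the control vault and 3186 to 5854 in the MCAGF8 vault. Only base replicate 2 thus exceeded the vaults, and base replicates 1 and 3 were below all 6 vault libraries in the cartilage sum. The 8 bone genes summed to 1370 to 3332 in the control vault, 140 to 288 in the MCAGF8 vault and 490 to 1372 in the control base. The 10 skeletal muscle genes summed to 10539, 1652 and 4440 in base replicates 1 to 3, to 861, 5434 and 1468 in the control vault and to 52.8, 65.8 and 202 in the MCAGF8 vault. The muscle sum was thus lowest in the 3 MCAGF8 libraries. Among its genes Myh8 was an exception, at 32.0, 22.6 and 21.3 FPKM in the MCAGF8 vault. It was at 19.7, 28.9 and 21.2 in the base and at 19.9, 64.7 and 15.3 in the control vault. In bulk tissue, fewer cells of a type and less RNA per cell cannot be told apart.

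Library by library, the 9 genes together were high in the control base and in 1 library of each vault group. Their summed FPKM was 64.8, 36.2 and 20.4 in control base replicates 1 to 3, 9.95, 12.6 and 34.8 in the MCAGF8 vault, and 7.01, 51.8 and 5.51 in the control vault. Control vault replicate 2 was above 2 of the 3 base libraries, while control vault replicates 1 and 3 were the 2 lowest of all 9 libraries. The group means were 40.5 ± 22.5, 19.1 ± 13.6 and 21.4 ± 26.3 (SD, n = 3 each), so in the control vault the SD was larger than the mean. Control vault replicate 2 was 8.28 times the mean of replicates 1 and 3. The ratio of the base mean to the control vault mean was 1.89 with all libraries and 6.47 against control vault replicates 1 and 3 alone. Against the same 2 libraries the single base libraries were 10.4, 5.79 and 3.26 times higher and the MCAGF8 libraries 1.59, 2.02 and 5.55 times higher.

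**Figure D1:**
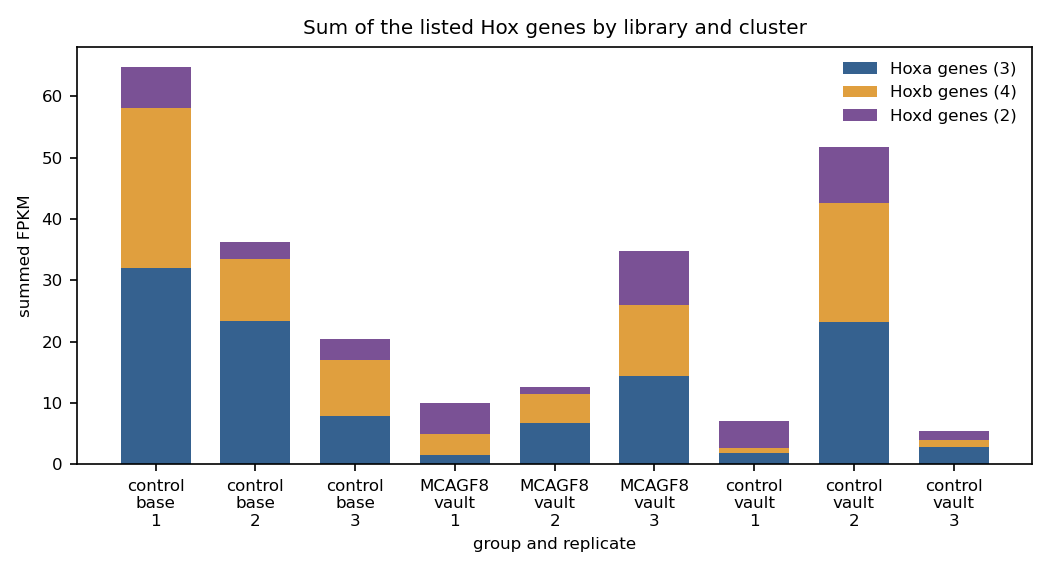
Summed FPKM of the 9 listed Hox genes (vertical axis, linear from 0) in each library (horizontal axis, group and replicate), stacked by Hox cluster, with 3 Hoxa, 4 Hoxb and 2 Hoxd genes. The tallest bars are base replicate 1 at 64.8 and control vault replicate 2 at 51.8, and the shortest are control vault replicates 3 and 1 at 5.51 and 7.01.

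Gene by gene, the same libraries stood at the top of their groups. Control vault replicate 2 was the highest control vault library for 9 of 9 genes and MCAGF8 replicate 3 the highest MCAGF8 library for 9 of 9. Base replicate 1 was the highest base library for 8 of 9 genes, the exception being Hoxb1. The share of all genes with the same library at the top of its group was not counted. Across all 9 libraries, control vault replicate 2 had rank 1 for 2 genes, rank 2 for 5 and rank 3 for 2. The highest library of all was base replicate 1 for 5 genes, control vault replicate 2 for 2 and MCAGF8 replicate 3 for 2. Base and control vault libraries overlapped for 9 of 9 genes, where 8.86% of all 18714 genes tested lay wholly higher and 6.69% wholly lower in the base. MCAGF8 and control vault libraries also overlapped for 9 of 9, where 9.9% of all genes lay wholly higher and 9.35% wholly lower. Against the MCAGF8 vault, the base lay wholly higher for 1 of 9 genes, Hoxa3, and wholly lower for 0, beside 13% and 8.91% of all genes. With control vault replicate 2 left out, all base libraries exceeded both remaining control vault libraries for 6 of 9 genes, beside 13.1% of all genes, and all MCAGF8 libraries did so for 5 of 9, beside 13.3%. Replicate 2 was singled out after its values had been seen, so these counts describe it and carry no test.

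**Figure D2:**
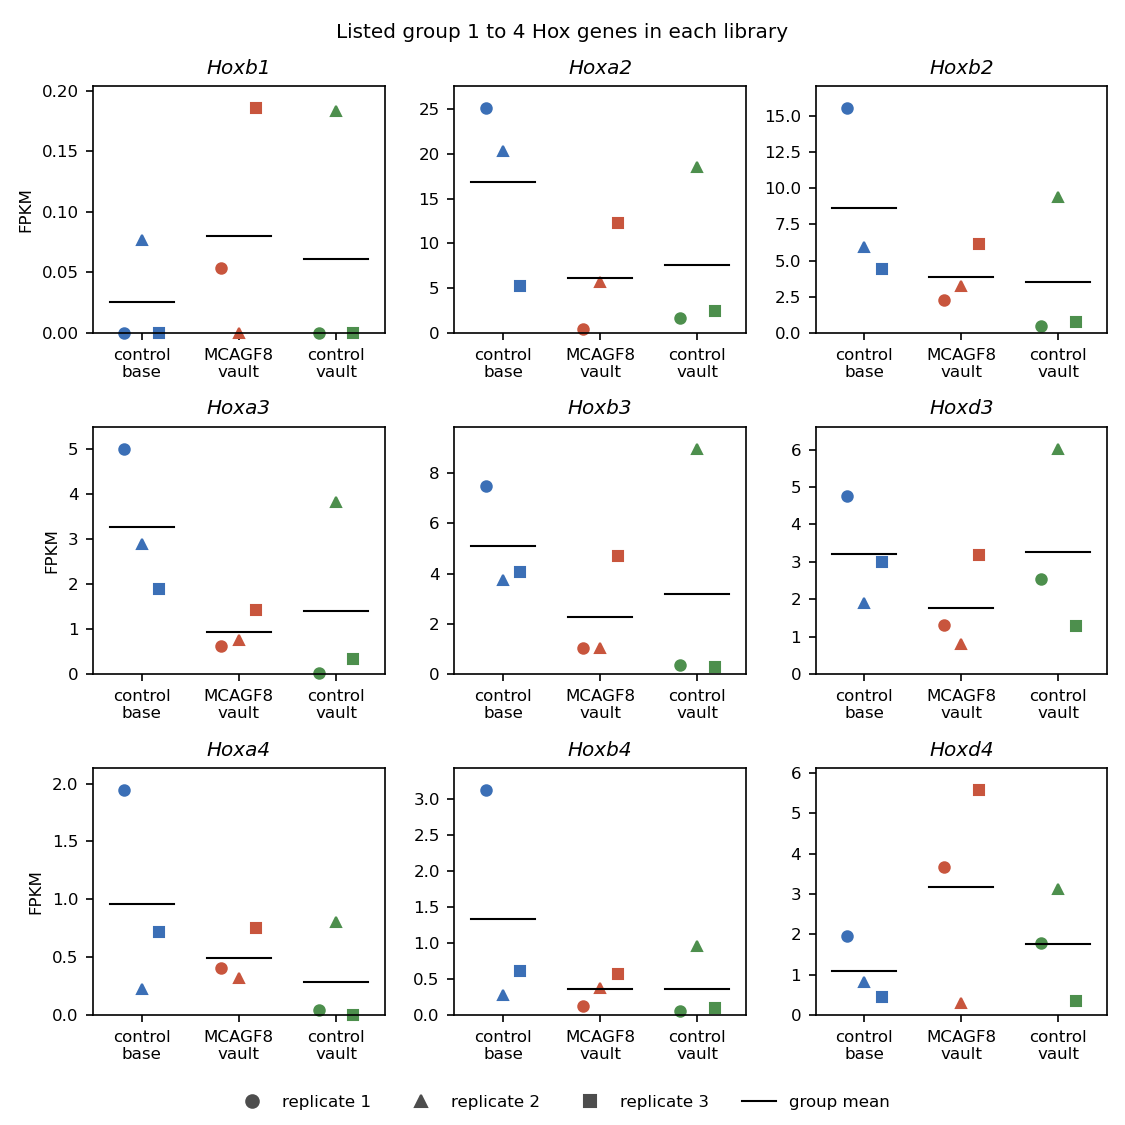
FPKM (vertical axis, linear from 0, a scale for each gene) of each listed Hox gene in the 3 groups, with 1 point per library, the shape giving the replicate number and the line the group mean. In each panel control vault replicate 2 is the highest control vault point and MCAGF8 replicate 3 the highest MCAGF8 point, and control base and control vault points overlap for all 9 genes.

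Paralog group 2 carried the most signal in every library except MCAGF8 replicate 1 and control vault replicate 1, and group 1 carried almost none. Hoxb1 was at 0, 0.0772 and 0 FPKM in base replicates 1 to 3, at 0.0540, 0 and 0.185 in the MCAGF8 vault and at 0, 0.183 and 0 in the control vault. It was at 0 in 5 of 9 libraries and failed the filter for the fit, a mean of 0.5 FPKM over the 9 libraries. No order of the 3 groups can be read from values of this size. Hoxa2 was at 25.1, 20.3 and 5.23 FPKM in the base, at 0.484, 5.74 and 12.3 in the MCAGF8 vault and at 1.70, 18.6 and 2.45 in the control vault. Its base values exceeded control vault replicates 1 and 3 in each library, and control vault replicate 2 had rank 3 of 9, above base replicate 3. Its lowest value was in MCAGF8 replicate 1, so the MCAGF8 libraries reached both below and far above control vault replicates 1 and 3. Hoxb2, the group 2 gene of the Hoxb cluster, which acts in the hindbrain and its motor neurons, was at 15.5, 5.97 and 4.43 FPKM in the base, at 2.25, 3.28 and 6.12 in the MCAGF8 vault and at 0.506, 9.39 and 0.747 in the control vault. Every base and every MCAGF8 library was above control vault replicates 1 and 3 for Hoxb2, and control vault replicate 2 was above all but base replicate 1. Replicate 2 was 8.93 times the mean of the other control vault libraries for Hoxa2 and 15.0 times for Hoxb2. The ratio of the base mean to the control vault mean was 2.23 for Hoxa2 and 2.43 for Hoxb2, and 8.11 and 13.8 without that library.

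Group 3 genes shape the third pharyngeal arch, the hyoid and the throat glands, Hoxa3 most of all, and Hoxd3 the first neck vertebrae. Hoxa3 was at 5.0, 2.91 and 1.90 FPKM in the base, at 0.620, 0.755 and 1.42 in the MCAGF8 vault and at 0.0245, 3.84 and 0.324 in the control vault. For Hoxa3 the 3 groups formed an order of base, MCAGF8 vault and control vault with no overlap once control vault replicate 2 was set aside, and replicate 2 itself was above 2 of the 3 base libraries. Hoxb3 was at 7.47, 3.76 and 4.07 FPKM in the base, at 1.04, 1.05 and 4.70 in the MCAGF8 vault and at 0.359, 8.94 and 0.274 in the control vault. Control vault replicate 2 was the highest of all 9 libraries for Hoxb3, at 28.2 times the mean of the other control vault libraries, and MCAGF8 replicate 3 had rank 3. Hoxd3 was at 4.76, 1.91 and 2.98 FPKM in the base, at 1.31, 0.813 and 3.17 in the MCAGF8 vault and at 2.53, 6.0 and 1.28 in the control vault. Here the 3 groups were interleaved with or without control vault replicate 2, which was again the highest of the 9 but only 3.15 times the mean of the other control vault libraries. The ratio of the base mean to the control vault mean was 2.34 for Hoxa3, 1.60 for Hoxb3 and 0.984 for Hoxd3, and without control vault replicate 2 it was 18.8, 16.1 and 1.69.

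Group 4 genes have expression limits at the hindbrain and neck boundary and pattern the neck vertebrae. Hoxa4 was at 1.94, 0.224 and 0.718 FPKM in the base, at 0.404, 0.319 and 0.755 in the MCAGF8 vault and at 0.0420, 0.808 and 0 in the control vault. Hoxb4 was at 3.12, 0.284 and 0.612 FPKM in the base, at 0.129, 0.381 and 0.567 in the MCAGF8 vault and at 0.0494, 0.951 and 0.102 in the control vault. For both genes base replicate 1 was the highest of 9 libraries, control vault replicate 2 the second, and control vault replicates 1 and 3 the 2 lowest. Hoxd4 was at 1.97, 0.828 and 0.459 FPKM in the base, at 3.66, 0.295 and 5.57 in the MCAGF8 vault and at 1.79, 3.13 and 0.335 in the control vault. Of the 8 genes above the filter, Hoxd4 alone had a base mean below both vault means, at 0.619 times the control vault mean with all libraries and 1.02 times it without control vault replicate 2, and its 2 highest values lay in MCAGF8 replicates 3 and 1. Its groups overlapped in all 3 pairings. The base to control vault ratio of means was 3.39 for Hoxa4 and 3.64 for Hoxb4. It was 1.66 and 1.22 without base replicate 1, and 45.8 and 17.7 without control vault replicate 2, where the remaining control vault values were near 0.

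By cluster, control vault replicate 2 stood out less for the sum of the 2 Hoxd genes than for the Hoxa and Hoxb sums. Summed by cluster, the 3 Hoxa genes gave 32.0, 23.4 and 7.84 FPKM in the base, 1.51, 6.81 and 14.4 in the MCAGF8 vault and 1.77, 23.2 and 2.78 in the control vault. The 4 Hoxb genes gave 26.1, 10.1 and 9.11 in the base, 3.47, 4.71 and 11.6 in the MCAGF8 vault and 0.914, 19.5 and 1.12 in the control vault. The 2 Hoxd genes gave 6.73, 2.74 and 3.44 in the base, 4.98, 1.11 and 8.74 in the MCAGF8 vault and 4.32, 9.14 and 1.61 in the control vault. In the Hoxd sum alone, control vault replicate 1 was above base replicates 2 and 3. Hoxd3 and Hoxd4 made up 36.1% and 25.6% of the summed FPKM of the 9 genes in control vault replicate 1, against 7.34% and 3.04% in base replicate 1. Hoxa2 was the largest share in 7 of 9 libraries, at 25.6% to 55.9%, the exceptions being MCAGF8 replicate 1 and control vault replicate 1. Across the 9 libraries, which include the same 3 high ones, the log2(FPKM + 1) of each gene had a Pearson's r with the mean of the others of 0.96 for Hoxb3, 0.93 for Hoxb2, 0.88 for Hoxa3, 0.83 for Hoxa4, 0.79 for Hoxd3, 0.78 for Hoxa2, 0.78 for Hoxb4, 0.48 for Hoxb1 and 0.40 for Hoxd4. Hoxd3 and Hoxd4 share 17232 bases of annotated span on the same strand, and Hoxa3 overlaps Hoxa4 by 2083 bases, so the division of reads between these genes is uncertain.

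In the fit across all genes, limma on log2(FPKM + 1), 0 of the 8 listed genes above the filter were called in any of the 3 comparisons, a call being an unadjusted p under 0.05 with an adjusted p (Benjamini-Hochberg) under 0.1. The share of all 18714 genes called was 3.06% for the base against the control vault, 0.604% for the MCAGF8 vault against the control vault and 8.39% for the base against the MCAGF8 vault. At an unadjusted p under 0.05 alone, 0 of the 8 passed in each comparison, beside 12.8%, 6.34% and 19.6% of all genes, and a linear model without moderation called 0 as well. Without control vault replicate 2, Hoxb2 and Hoxa3 were called higher in the base than in the control vault, by 2.40 and 1.81 on the log2(FPKM + 1) scale, beside 1.17% of all genes, but that library was singled out for its values of these same genes. The median log2 difference of the 8 genes was 0.88 for base minus control vault, 0.10 for MCAGF8 vault minus control vault and 0.76 for base minus MCAGF8 vault, beside medians of 0.07, -0.01 and 0.07 over all genes. The comparisons share libraries, and 7, 6 and 7 of the 8 differences were above 0. Since the genes were listed with these values known, neither counts nor medians are evidence of a regional difference.

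Hoxc4 and Hoxd1, anterior Hox genes that were not listed, did not follow one pattern. Hoxc4, the group 4 gene of the Hoxc cluster, was at 1.49, 0.0502 and 0.190 in the base, at 0.457, 0.60 and 1.58 in the MCAGF8 vault and at 0, 0.388 and 0.0270 in the control vault. Within the groups Hoxc4 was highest in base replicate 1, MCAGF8 replicate 3 and control vault replicate 2, the libraries with the highest sums of the listed genes. Hoxd1, a gene of the Hoxd cluster known from sensory neurons, was at 0.485, 2.99 and 15.0 FPKM in the base, at 5.40, 3.86 and 3.47 in the MCAGF8 vault and at 1.76, 2.74 and 1.77 in the control vault. Its highest value was in base replicate 3, which also had the highest sum of 7 cranial sensory ganglion genes, 902 FPKM against 123 and 218 in base replicates 1 and 2 and at most 17.3 in the vaults. By limma, neither gene was called in any comparison or had an unadjusted p under 0.05.

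Among the more posterior Hox genes, Hoxa13, Hoxa11, Hoxc5 and Hoxd9 exceeded 1 FPKM in each MCAGF8 library and in no other library. Of 11 listed genes of groups 5 to 8 and 16 of groups 9 to 13, 3 of each passed the filter. Hoxa13 and Hoxa11, which pattern the limb, were at 1.93, 10.9 and 4.73 and at 2.01, 6.07 and 2.72 FPKM in MCAGF8 replicates 1 to 3, and at 0.0739 and 0.0778 at most in the other 6 libraries. Hoxc5 was at 1.60, 1.36 and 1.72 FPKM in the MCAGF8 vault and at 0.281 at most elsewhere. Hoxd9 was at 1.16, 1.57 and 1.57 FPKM in the MCAGF8 vault and at 0.626 at most elsewhere. All 4 passed the filter only through the group where they were high, so no test is given for them. Hoxa11 and Hoxa13 were highest in MCAGF8 replicate 2, whereas the 9 anterior genes were each highest in MCAGF8 replicate 3. The 6 epidermis genes summed to 381, 343 and 861 FPKM in the MCAGF8 vault, 18.4, 83.7 and 9.34 in the control vault and 418, 46.3 and 598 in the base, and their part in these values was not tested.

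Among control vault libraries, replicate 2 was also the highest for transcripts from within the same clusters. Of 19 other annotated genes between the group 1 and group 4 genes of the Hoxa, Hoxb and Hoxd clusters, 9 had a mean FPKM of at least 0.5, and control vault replicate 2 was the highest of its group for 9 of 9. The other high libraries were not shared by all of these genes, as Haglr was highest in base replicate 3 and MCAGF8 replicate 2. These genes were chosen after the data had been seen and are not tested. Most of the 9 overlap a listed Hox gene in annotated span, so they are no separate set. The share of all genes with replicate 2 as the highest control vault library was not counted. Hotairm1, a noncoding RNA of the Hoxa cluster on the strand opposite to its Hox genes, was at 22.4, 4.06 and 4.27 FPKM in the base, at 3.86, 8.66 and 11.3 in the MCAGF8 vault and at 0.456, 5.88 and 0.0941 in the control vault. Hoxaas3, which is antisense to Hoxa3 and Hoxa4, was at 14.7, 1.39 and 2.86 FPKM in the base, at 0.136, 0.538 and 1.43 in the MCAGF8 vault and at 0, 3.11 and 0.129 in the control vault. Hoxb3os, which is antisense to Hoxb2 and Hoxb3, was at 2.26, 3.00 and 0.415, at 0.657, 0.526 and 1.80, and at 0.0612, 2.17 and 0.0904 FPKM in the same order of groups. Each of the 3 was again low in control vault replicates 1 and 3. The library kit was stranded, but whether the authors' quantification used the strand is not stated, so reads of a Hox gene and its antisense partner cannot be told apart here.

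Among all 18706 genes outside the list that passed the filter, Hoxaas2 and Hoxaas3, both antisense within the Hoxa cluster, were among the 10 whose profile was most like the mean standardised level of the 9 genes (Pearson's r of 0.88 and 0.86 over 9 libraries). The other 8 were Mpzl3 (0.94), A730056A06Rik, Tbc1d10c, Gm5479, Gm7426, Mterf3, Lmcd1 and Gm5814, with r from 0.87 to 0.94. With 9 libraries and this many genes, values of this size describe the libraries and single out no gene.

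Markers of other tissues were set beside the Hox sums. In each group the library with the highest Hox sum also had the highest skeletal muscle sum, base replicate 1 at 10539, MCAGF8 replicate 3 at 202 and control vault replicate 2 at 5434 FPKM. Between groups the 2 sums parted, since MCAGF8 replicate 3, with a Hox sum of 34.8, had a muscle sum below control vault replicate 1, with a Hox sum of 7.01 and a muscle sum of 861. The 7 rostral head genes, which are expressed in forebrain and frontonasal or skull mesenchyme, summed to 25.3, 15.9 and 57.1 FPKM in the base, 163, 159 and 105 in the MCAGF8 vault and 152, 97.9 and 176 in the control vault. In both vault groups the library with the highest Hox sum had the lowest rostral sum. Control vault replicate 2 also had the lowest bone sum of its group, at 1370 FPKM against 3110 and 3332. In both vault groups the library with the highest Hox sum also had the highest epidermis sum, at 83.7 and 861 FPKM, and the highest cartilage sum, at 3417 and 5854, while in the base it had neither. The part of muscle, bone, cartilage, epidermis or rostral tissue in the Hox values was not tested.

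**Figure D3:**
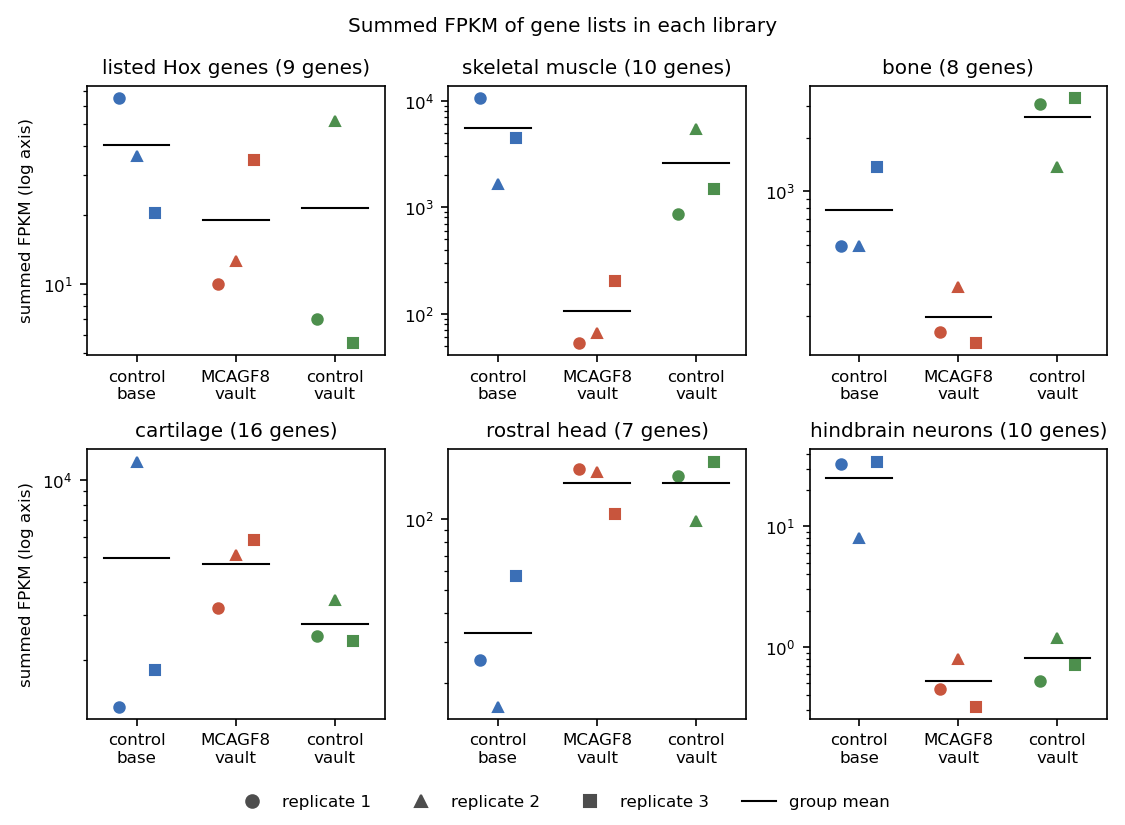
Summed FPKM (vertical axis, log scale) of the 9 listed Hox genes and of 5 lists of marker genes in the 3 groups, with 1 point per library, the shape giving the replicate number and the line the group mean. Control vault replicate 2 is the highest of its group for Hox and muscle genes and the lowest for bone and rostral head genes, and the hindbrain list is high in the 3 base libraries only.

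Hindbrain tissue was looked for directly, as the hindbrain expresses all 4 anterior groups. The 10 genes of hindbrain and spinal neurons summed to 33.0, 7.95 and 34.3 FPKM in the base and to at most 0.802 in the MCAGF8 vault and 1.18 in the control vault. In the vaults these genes were thus at or near 0, also in control vault replicate 2 at 1.18 and MCAGF8 replicate 3 at 0.321, where the Hox sums were high. Base replicate 2 had a Hox sum of 36.2 and the lowest hindbrain sum of its group. Of the 9 tested pan-neuronal genes, 5 were called higher in the base than in the control vault and 0 lower. Of the 7 sensory ganglion genes the counts were 4 and 0, beside 3.06% of all genes called in either direction. Among these 7, Pou4f1 and Prrxl1 passed the filter only through the base, and neither was called in that comparison. The part of neurons in the base values of the Hox genes was not tested.

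Lmx1b and Alx4, rostral genes of the skull mesenchyme, fell in the base, in contrast to the overlapping Hox values. Lmx1b, a transcription factor of the skull mesenchyme, was at 0.783, 0.830 and 2.59 FPKM in the base, at 35.6, 37.4 and 29.9 in the MCAGF8 vault and at 23.1, 26.1 and 24.1 in the control vault. It was lower in the base than in the control vault by a log2 difference of -3.49 (SE 0.28, adjusted p = 0.00107, limma), with no overlap. For Lmx1b the control vault libraries lay close together, replicate 2 included. Alx4, a homeobox gene of the frontonasal and skull crest, was at 13.4, 6.81 and 28.6 FPKM in the base, at 91.8, 94.1 and 62.4 in the MCAGF8 vault and at 73.0, 52.2 and 82.7 in the control vault. Its log2 difference between base and control vault was -2.21 (SE 0.42, adjusted p = 0.0418, limma), a call lost under 4 of 19 alternatives (adjusted p from 0.138 to 0.168), among them the omission of control vault replicate 1 or 3. Of the 6 tested rostral genes, 2 were called lower in the base than in the control vault and 0 higher, beside 3.06% of all genes. The list was not uniform, as 1 of the 6, Otx1, had a difference above 0. Otx1 was at 2.68, 1.22 and 2.57 FPKM in the base and at 1.21, 0.118 and 0.610 in the control vault, and was not called. For Otx2 the log2 difference was -0.13.

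Pax9, Nkx3-2 and Shh rose in the base against the control vault, while the sclerotome list as a whole was mixed. Pax9, a gene of the sclerotome and the pharyngeal pouches, was at 17.9, 6.47 and 24.1 FPKM in the base, at 0.699, 0.976 and 0.411 in the MCAGF8 vault and at 3.74, 0.456 and 1.36 in the control vault. It rose in the base against the control vault by 2.59 on the log2 scale (SE 0.51, adjusted p = 0.0466, limma), a call that was lost under 5 of 19 alternatives (adjusted p from 0.126 to 0.183), among them the omission of base replicate 3 or control vault replicate 2 or 3. Nkx3-2, which promotes cartilage in the sclerotome, rose by 1.72 (SE 0.31, adjusted p = 0.0342, limma), a call lost under 4 of 18 alternatives (adjusted p from 0.110 to 0.149), among them the omission of control vault replicate 1 or 3. Shh, the signal of the notochord and floor plate that is also made by pharyngeal epithelium, was at 3.36, 1.90 and 4.25 FPKM in the base and at 0.258 at most in the vaults. It rose by 1.92 (SE 0.25, adjusted p = 0.0105, limma). Shh passed the filter only through the base, and without the filter its adjusted p was 0.0120 (limma). For Pax9, Nkx3-2 and Shh each base library was above each control vault library, replicate 2 included. Of 8 tested genes of paraxial mesoderm and sclerotome, 2 were called higher in the base than in the control vault and 0 lower, beside 3.06% of all genes. Of the same 8, 4 had a difference above 0, and the median log2 difference of the 8 was 0.04. Foxa2 and Foxa1, the other tested notochord genes, averaged 3.39 and 7.72 FPKM in the base. Their means were 0.690 and 0.00619 in the MCAGF8 vault and 0.270 and 0.435 in the control vault. They too passed the filter only through the base, so no count of called notochord genes is given. Noto, also on that list, was at 0 in every library.

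Of the cofactors of the HOX proteins, Meis1 rose in the base against the control vault. Of the 9 TALE genes, 1 was called higher and 0 lower in the base than in the control vault, beside 3.06% of all genes. Between the MCAGF8 and control vaults 0 were called, beside 0.604%. In the base against the MCAGF8 vault 1 was called lower and 0 higher, beside 8.39%. In the base against the control vault, 3 of the 9 had an unadjusted p under 0.05, beside 12.8% of all genes. Meis1 was at 34.0, 23.6 and 30.5 FPKM in the base, at 22.0, 26.7 and 36.0 in the MCAGF8 vault and at 9.37, 18.4 and 8.31 in the control vault. All base and MCAGF8 libraries were above all control vault libraries for Meis1, and within the vault groups its highest values were in MCAGF8 replicate 3 and control vault replicate 2, the libraries with the highest Hox sums. Meis1 rose in the base against the control vault by 1.29 on the log2 scale (SE 0.31, adjusted p = 0.0807, limma). Its difference of 1.22 between the MCAGF8 and control vaults (SE 0.31, adjusted p = 0.215, limma) was not called. There 2 of the 9 cofactors had an unadjusted p under 0.05, beside 6.34% of all genes. The base call for Meis1 was lost under 12 of 19 alternatives, among them the omission of any one of 7 libraries, base replicates 1 and 3, the 3 MCAGF8 replicates and control vault replicates 1 and 3 (adjusted p from 0.110 to 0.295). Pbx3 was at 31.9, 37.9 and 45.3 FPKM in the base and at 66.0, 83.3 and 61.1 in the MCAGF8 vault, lower in the base by a log2 difference of -0.85 (SE 0.19, adjusted p = 0.0317, limma). That call was lost under 3 of 19 alternatives (adjusted p from 0.110 to 0.114), among them the omission of MCAGF8 replicate 1 or 2. Pbx2, Pbx4, Meis2, Meis3, Pknox1 and Pknox2 were called in no comparison.

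**Figure D4:**
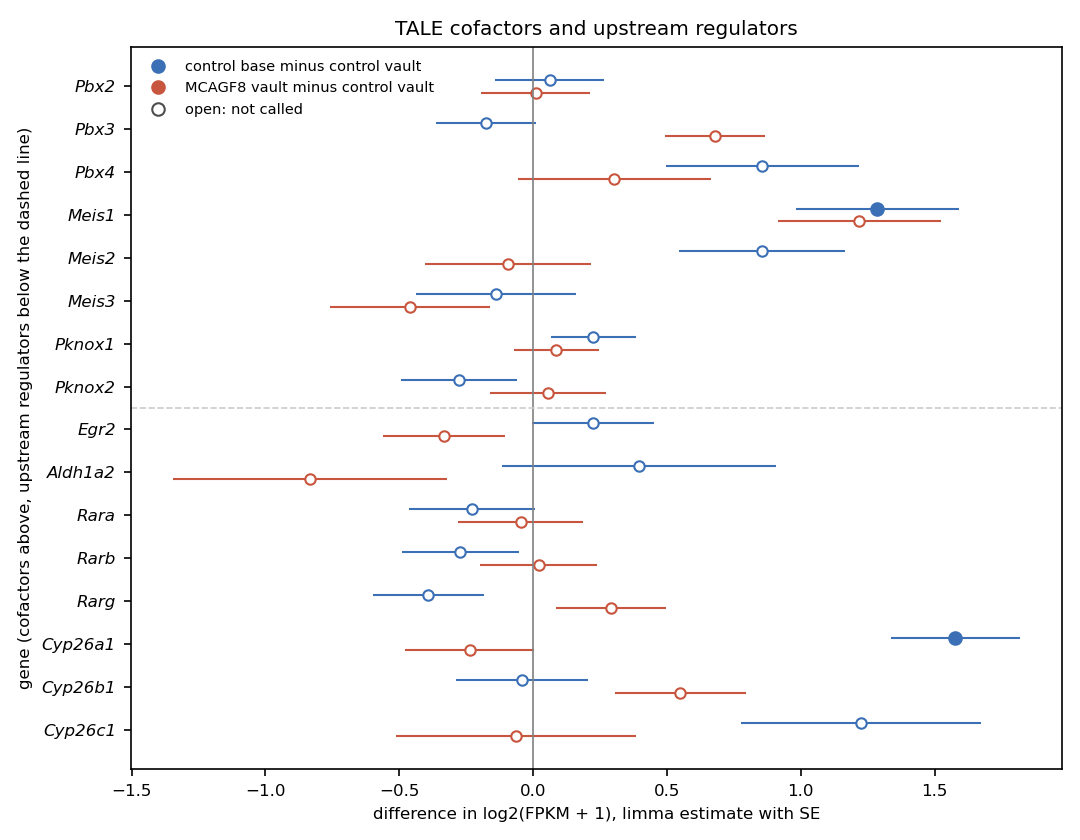
Difference in log2(FPKM + 1) from limma (horizontal axis, bars 1 SE) for 8 TALE cofactors and, below the dashed line, 8 tested upstream regulators (vertical axis), for the control base and the MCAGF8 vault, each minus the control vault. Filled points were called, which of the genes shown held for Meis1 (1.29) and Cyp26a1 (1.58) in the base and for none in the MCAGF8 vault.

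Of the upstream regulators, 9 of 14 passed the filter. Cyp26a1, an enzyme that degrades retinoic acid, was at 9.12, 8.80 and 8.11 FPKM in the base, at 1.13, 2.33 and 1.93 in the MCAGF8 vault and at 1.75, 2.86 and 2.21 in the control vault. It rose in the base by 1.58 against the control vault (SE 0.24, adjusted p = 0.0160) and by 1.81 against the MCAGF8 vault (SE 0.24, adjusted p = 0.00584, limma). The base values of Cyp26a1 varied little, and control vault replicate 2 lay close to the other 2. Egr2, the KROX20 gene, which activates Hoxa2 and Hoxb2 in the hindbrain, was at 1.00, 1.72 and 1.86 FPKM in the base, at 0.435, 0.986 and 0.712 in the MCAGF8 vault and at 1.22, 1.02 and 1.17 in the control vault, and was not called. Of the 9 tested regulators, 1 was called higher and 0 lower in the base than in the control vault, beside 3.06% of all genes. Between the vaults 0 were called, beside 0.604%. In the base against the MCAGF8 vault 1 was called higher and 1 lower, Rarg, beside 8.39%. The call for Rarg was lost under 15 of 19 alternatives (adjusted p up to 0.257, limma). Cyp26c1, among the 9 tested regulators, passed the filter only through the base and was called in no comparison.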

How the data were processed

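Stranded mRNA libraries were sequenced as single-end reads, and the authors used gSNAP for mapping and Cufflinks for expression. They deposited FPKM for each Ensembl gene as 1 table of 43611 rows, and 0 columns of other samples were set aside. Their build, annotation release and program versions were not given in the sources used here. Repeated identifiers (63 rows) were summed, and 9 genes with a placeholder (999999999) in place of a value were left out. The number of reads is unknown, so no counting interval is given. FPKM of a library summed to between 793249 and 1315980, and 16006 to 17281 genes reached 1 FPKM.

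Values were not rescaled. Genes whose mean FPKM reached 0.5, 18714 in all, were fitted as log2(FPKM + 1) with limma 3.58.1 in R 4.3.3 (eBayes with a trend), with 1 mean per group over all 9 libraries, two-sided. The added 1 understates changes of low genes. A gene was called at p under 0.05 with an adjusted p (Benjamini-Hochberg) under 0.1 over all genes tested. The fit was first tested on simulated data. Python 3.11.15, pandas 2.3.3, numpy 2.4.6 and matplotlib 3.10.9 were used for tables and plots. Symbols and coordinates come from GENCODE M21 on GRCm38 and promoter windows from RefSeq (GRCm38.p6).

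The 9 Hox genes and the 18 other lists, 158 genes in all, were chosen with earlier results of these data known. Named in the text are the 9 genes, the other Hox genes of groups 1 to 4, the TALE cofactors, up to 4 called genes and the gene of highest mean FPKM of each other list, and the 10 genes of most similar profile. Egr2, Otx1, Otx2, Noto, Myh8, Pou4f1, Prrxl1, Cyp26c1 and the noncoding RNAs within the clusters were named after their values were seen. Single values of some listed genes are not reported here. Foxc2 and Tubb3 were on a list but have no value here. Alternatives were other pseudocounts, filters and normalizations, a fit to only the libraries compared, the replicate number as a block, no moderation, the highest of repeated rows, and leaving out each library in turn.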

Additional observations from a re-analysis of the deposited data

How the results depend on the processing

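Counts of called genes moved with the processing, and so did the median difference of the Hox genes. For base against control vault, base against MCAGF8 vault and MCAGF8 against control vault, 573, 1571 and 113 genes were called. A filter of mean FPKM 5 gave 291, 834 and 71, a fit to only the libraries compared 108, 875 and 174, no moderation 257, 869 and 0 (with 1223 genes at an unadjusted p under 0.05), and the replicate block 234, 918 and 19. MCAGF8 against control vault also gave 191 and 192 with pseudocounts of 0.1 and 0.01 and 66 without a filter. Leaving out 1 library gave 130 to 1335, 587 to 4561 and 11 to 273. The largest counts came without base replicate 2, and the smallest without control vault replicate 3, MCAGF8 replicate 1, and control vault replicate 1 or 3. Equal replicate numbers did not deviate together in general. Of 9 same-number pairs, 2 had a correlation of deviations over 0.1 (range -0.549 to 0.37), and the own number correlated best in 3 of 18 cases. Only base and control vault pools can share embryos, and their same-number correlations were -0.409, 0 and 0.24. Deviations from the means of such small groups are tied to each other, so these values cannot show whether pools shared embryos.

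The median base minus control vault difference of all 9 Hox genes was 0.64, and 1.66 and 2.16 with pseudocounts of 0.1 and 0.01, which weigh low values more. Leaving out 1 library gave medians of 0.23 to 0.97. Hox genes called numbered 0 under 18 of 19 alternatives for base against control vault and under 19 of 19 for each other comparison. Of 72 called differences of other listed genes, 28 were called under every alternative that gave a value and 0 reversed. The cause of these shifts was not tested. Depth is unknown, and Hoxb1, Hoxa4 and Hoxb4 lie near the lower end of the scale.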
